A study of Mus musculus with 12 samples.

Results

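The 10 genes described here encode the main vascular endothelial growth factor (VEGF) ligands and receptors, the angiopoietins and their Tie receptors, and the endothelial surface proteins PECAM1 and VE-cadherin. They were chosen by name, as the rows of the expression table whose NCBI Gene identifiers map to Vegfa (22339), Vegfb (22340), Kdr (16542), Flt1 (14254), Pecam1 (18613), Cdh5 (12562), Tek (21687), Tie1 (21846), Angpt1 (11600) and Angpt2 (11601). All 10 were found among the 18079 genes of the table, and all 10 were among the 11664 genes that passed the filter on low values.

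The study asked how hispidulin, a plant flavone, acted on the mouse heart under pressure overload. RNA was sequenced from left ventricular muscle of 12 C57BL/6 mice, with 1 library per mouse and 3 mice in each of 4 groups, which the labels call DMSO+Sham, DMSO+AB, Hispidulin+Sham and Hispidulin+AB. Surgery was done at 8 weeks of age and was either a sham operation or aortic banding (AB), in which a ligature narrows the aorta so that the left ventricle pumps against a raised load. Hispidulin at 20 mg/kg/day, or DMSO, its solvent, was injected intraperitoneally once daily from 1 day ahead of surgery until 4 weeks afterwards, when the hearts were taken at 12 weeks of age. No group carried a genetic alteration, and no mouse was left without solvent or surgery. Values were FPKM, the fragments per kilobase of transcript, scaled to the mapped reads of the library. They came from single-end reads of 50 bases, and their depth is unknown because the table holds no counts.

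VEGF-A is the growth factor that drives sprouting, survival and permeability of endothelial cells, mainly through VEGFR2, the product of Kdr. Flt1 encodes VEGFR1, which binds VEGF-A and VEGF-B tightly and also exists as a soluble decoy. Angiopoietin-1, supplied in large part by cells around the vessel, activates the receptor TIE2, the product of Tek, and keeps vessels quiet and tight, whereas angiopoietin-2 is released by activated endothelium and often opposes it. Tie1 is a receptor of the same family that pairs with TIE2. PECAM1 and VE-cadherin, the product of Cdh5, sit at endothelial cell contacts. In the adult heart, cardiac muscle cells lie beside a dense capillary bed and are a source of VEGF-A.

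Because several of these genes arose from common ancestors, it matters whether a 50-base read can tell them apart. The most alike stretches of the coding sequences of 4 related pairs were taken from the GENCODE vM21 transcripts, and are given 5′ to 3′ along the gene, with the bases that differ within a pair in capitals and positions counted from 1 at the A of the start codon.
Angpt1, coding bases 949 to 998: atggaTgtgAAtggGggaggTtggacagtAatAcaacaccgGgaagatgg
Angpt2, coding bases 943 to 992: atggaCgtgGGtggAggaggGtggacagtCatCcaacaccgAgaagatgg
Tek, coding bases 2965 to 3014: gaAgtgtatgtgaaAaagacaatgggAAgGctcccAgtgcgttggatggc
Tie1, coding bases 3001 to 3050: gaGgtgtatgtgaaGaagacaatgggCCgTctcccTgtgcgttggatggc
Kdr, coding bases 2428 to 2477: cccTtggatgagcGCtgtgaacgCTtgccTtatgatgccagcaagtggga
Flt1, coding bases 2416 to 2465: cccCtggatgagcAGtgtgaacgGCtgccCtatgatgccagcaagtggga
Vegfa, coding bases 349 to 398: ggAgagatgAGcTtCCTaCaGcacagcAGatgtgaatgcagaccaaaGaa
Vegfb, coding bases 334 to 383: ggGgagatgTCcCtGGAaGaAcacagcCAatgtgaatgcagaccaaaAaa
Even there, Angpt1 and Angpt2 differed at 8 of 50 bases, Tek and Tie1 at 6, Kdr and Flt1 at 6, and Vegfa and Vegfb at 12. Over whole transcripts, 7 of the 10 genes shared no 50-base window with another gene, and the shared windows of Vegfa (0.22%) and Flt1 (0.147%) were few. Angpt1 was different, since 688 of its 4211 windows (16.3%) also lay in Gm17473, a gene annotated on the opposite strand across 737 exonic bases. The counting is not stated to use strand, so reads of Angpt1 and Gm17473 in that stretch cannot be told apart, and Gm17473 itself was not analysed here.

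Expression of the 10 genes spanned a wide range. Averaged over 12 mice, FPKM ran from Vegfb at 315, through Pecam1 at 82.1, Vegfa at 74.2, Cdh5 at 66.1, Tie1 at 41.1, Kdr at 32.2, Flt1 at 27.2 and Tek at 14.3, down to Angpt1 at 3.66 and Angpt2 at 1.01. The ranges over mice overlapped between Pecam1 and Vegfa, between Vegfa and Cdh5, between Tie1 and Kdr, between Kdr and Flt1, and between Angpt1 and Angpt2, so those neighbours were not separated across mice. Within each mouse, Tie1 exceeded Kdr and Angpt1 exceeded Angpt2 in 12 of 12, Kdr exceeded Flt1 in 11, Vegfa exceeded Cdh5 in 10 and Pecam1 exceeded Vegfa in 9. The genes also differed in how much they varied, with a coefficient of variation over the 12 mice of 9.13% for Tek to 17.1% for Flt1 among the abundant genes, 37.4% for Angpt2 and 47.0% for Angpt1.

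**Figure D1:**
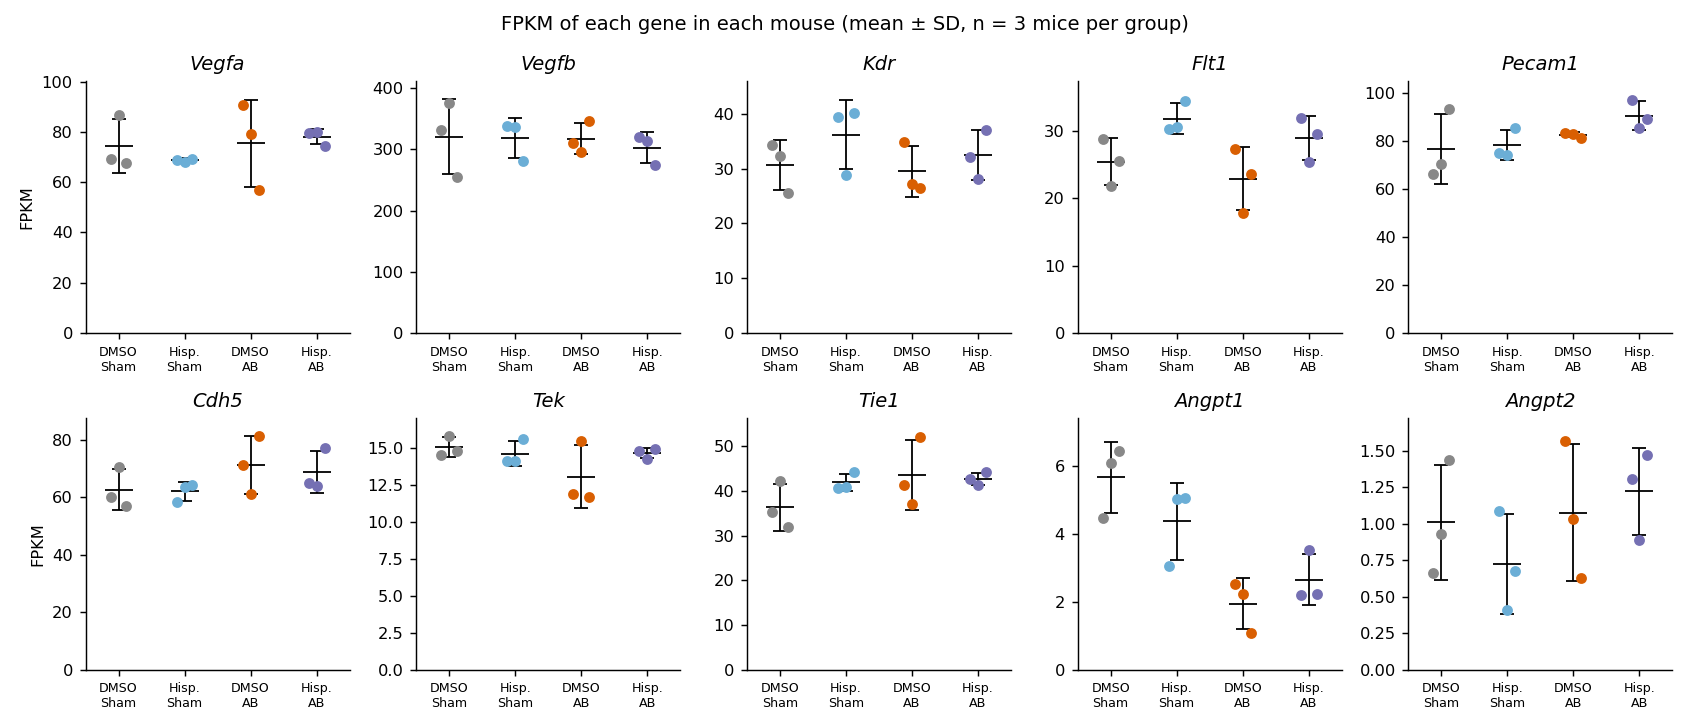
FPKM (vertical axes, each from 0) of each of the 10 genes in every mouse, by group; points are mice and bars are the mean ± SD of 3 mice. Angpt1 sits at 3.05 to 6.43 FPKM in the sham-operated mice and at 1.09 to 3.53 in the banded mice, with 1 banded mouse, at 3.53, above the lowest sham-operated mouse.

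Angpt1 was the gene of the 10 that changed with banding. Its FPKM was 4.46, 6.09 and 6.43 in the DMSO+Sham mice, 3.05, 5.01 and 5.04 in Hispidulin+Sham, 2.51, 2.23 and 1.09 in DMSO+AB, and 2.19, 3.53 and 2.24 in Hispidulin+AB. Each DMSO+AB mouse lay below each DMSO+Sham mouse, whereas 1 Hispidulin+AB mouse lay above the lowest Hispidulin+Sham mouse. The group means were 5.66 ± 1.05 in DMSO+Sham, 4.37 ± 1.14 in Hispidulin+Sham, and after banding 1.94 ± 0.752 in DMSO+AB and 2.65 ± 0.761 in Hispidulin+AB (SD, n = 3). In DMSO-treated mice the level after AB was thus 0.343 of the sham level, a log2 fold change of FPKM + 1 of -1.20 (SE 0.23, 95% interval -1.71 to -0.70, limma adjusted p = 0.0171 with Benjamini-Hochberg adjustment over all genes tested). Adding 1 ahead of the log2 transform understates the change of a gene at this level.

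With hispidulin the same comparison gave a smaller value that did not pass. Angpt1 in Hispidulin+AB was 0.608 of Hispidulin+Sham, with a log2 fold change of -0.55 (SE 0.23, 95% interval -1.06 to -0.05, limma adjusted p = 0.657). Whether the change differed between DMSO and hispidulin was tested directly, and the difference of 0.65 on the log2 scale (SE 0.33, 95% interval -0.06 to 1.36) did not pass (unadjusted p = 0.0707, limma adjusted p = 1). Averaged over both treatments, Angpt1 fell by 0.88 on the log2 scale (SE 0.16, limma adjusted p = 0.0105). An exact two-sided permutation test of that averaged difference, with AB and sham exchanged only within each treatment, gave p = 0.01 over 400 arrangements, where the smallest possible p was 0.005.

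Of the 10 genes, 1 was called lower in DMSO-treated mice and 1 of 10 in the average, and none was called higher. Among all genes tested, 5.21% were called between DMSO+AB and DMSO+Sham, with 2.71% called lower, and 7.39% in the average, with 3.87% called lower. With 10 genes, 1 call is too few to set the group apart from that share. None of the 10 was called in Hispidulin+AB against Hispidulin+Sham, where the share of all genes called was 0% and 847 genes had an unadjusted limma p under 0.05. The groups did not overlap for 1 of 10 genes in the DMSO comparison (Angpt1) and for 1 of 10 with hispidulin (Vegfa), against 17.9% and 20.9% of all genes tested.

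The Angpt1 fall kept its sign in each fit that left out libraries, while its call did not hold in all of them. The summed FPKM of 4 atrial markers was 20.3 to 44.2 in DMSO+Sham but reached 782 in 1 Hispidulin+Sham mouse, 180 in 1 DMSO+AB mouse and 97.0 in 1 Hispidulin+AB mouse, against 8.2 to 18.8 in the other 6 mice of those groups. Without those 3 libraries, an alternative chosen after the data were seen, Angpt1 differed by -1.285 in DMSO-treated mice (limma adjusted p = 0.125) and by -0.83 in the average (limma adjusted p = 0.126), so neither call held, and the calls among all genes dropped from 608 to 20 and from 862 to 73. Leaving out 1 library at a time ended the DMSO call without DMSO+AB replicate 2 (log2 fold change -1.285, limma adjusted p = 0.053) or replicate 3 (-0.97, limma adjusted p = 0.0573), and ended the averaged call in 0 of 12 cases. With the model fitted to the 6 DMSO libraries alone, the adjusted p was 0.109. The part of atrial tissue in these values was not tested.

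The sample names carry numbers that begin with 5 or 6 in 11 of the 12 libraries, and the labels do not say what they stand for. Within the libraries beginning with 5, Angpt1 after AB minus sham was -1.76 on the log2 scale with DMSO (1 mouse against 1) and -0.61 with hispidulin (1 against 2). Within those beginning with 6, it was -1.14 with DMSO (2 against 1) and -0.67 with hispidulin (2 against 1). The AB value was lower in each of the 4 settings. These sets were not tested on their own. With the leading digit of the number as a covariate in the model, Angpt1 differed by -1.39 with DMSO (limma adjusted p = 0.0216). The averaged difference was then -1.03 (limma adjusted p = 0.0111). DMSO+Sham 1, whose number begins with neither 5 nor 6, was alone in its level and so added nothing to these estimates. At 4.46 FPKM, it was the DMSO+Sham mouse with the lowest Angpt1.

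Angpt2, the ligand that often opposes angiopoietin-1, was near the lower limit of the values analysed. Its FPKM was 0.66, 0.93 and 1.44 in DMSO+Sham, 1.09, 0.41 and 0.68 in Hispidulin+Sham, 1.57, 1.03 and 0.63 in DMSO+AB, and 1.31, 0.89 and 1.47 in Hispidulin+AB. All 4 groups overlapped. The log2 fold change after AB was 0.04 (SE 0.21) with DMSO and 0.37 (SE 0.21) with hispidulin, and neither passed the limma test (adjusted p = 0.935 and 0.768). The 95% intervals, -0.42 to 0.50 and -0.08 to 0.83, leave room for sizeable changes in either case.

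Set against its opposing ligand and its receptor within each mouse, Angpt1 was lower after AB. The ratio of Angpt1 to Angpt2 averaged 5.92 ± 1.27 in DMSO+Sham, 7.48 ± 4.71 in Hispidulin+Sham, and after banding 1.83 ± 0.296 in DMSO+AB and 2.39 ± 1.37 in Hispidulin+AB (SD, n = 3). It ran from 2.80 to 12.2 in sham-operated mice and from 1.52 to 3.97 in banded mice. The ratio of Angpt1 to Tek averaged 0.375 ± 0.0644, 0.298 ± 0.0729, 0.149 ± 0.0589 and 0.182 ± 0.0568 in the same order of groups, with sham values from 0.216 to 0.434 and AB values from 0.0931 to 0.247. These ratios use the same Angpt1 values as the test above and are given as a description.

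**Figure D2:**
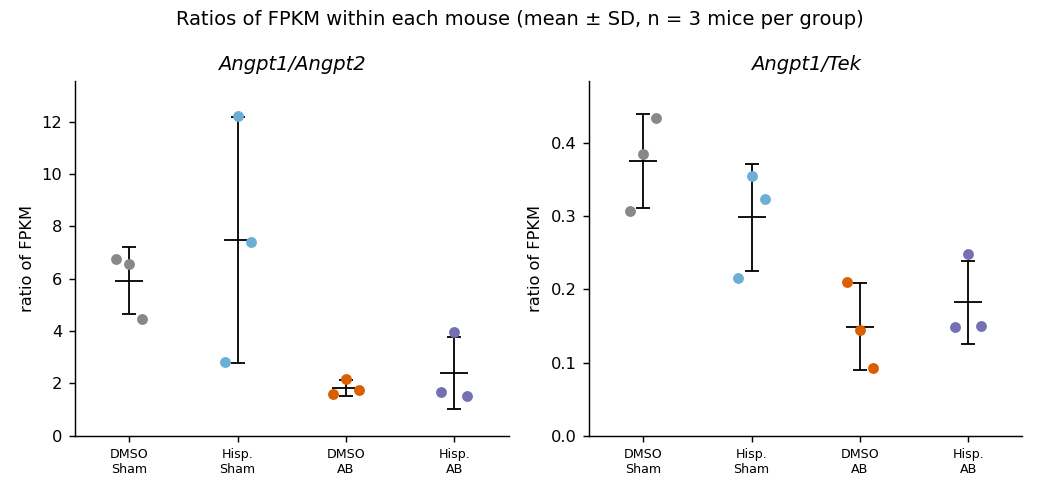
Ratio of Angpt1 to Angpt2 FPKM (left) and of Angpt1 to Tek FPKM (right) within each mouse, by group; points are mice and bars are the mean ± SD of 3 mice. DMSO+AB mice lie at 1.60 to 2.17 for Angpt1 to Angpt2, below the 4.46 to 6.76 of DMSO+Sham.

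The Tie receptors showed no change that passed. Tek had an FPKM of 14.56, 15.84 and 14.81 in DMSO+Sham, 14.13, 14.11 and 15.6 in Hispidulin+Sham, 11.92, 15.51 and 11.71 in DMSO+AB, and 14.77, 14.26 and 14.91 in Hispidulin+AB. In DMSO+AB 2 mice lay below all other mice of the study, and the third lay within the sham range. The log2 fold change after AB was -0.20 (SE 0.11, limma adjusted p = 0.325) with DMSO and 0.00 (SE 0.11, limma adjusted p = 0.998) with hispidulin. For Tie1 the values were 35.16, 42.12 and 31.84 in DMSO+Sham, 40.65, 40.84 and 44.15 in Hispidulin+Sham, 41.41, 37.06 and 52.1 in DMSO+AB, and 42.73, 41.4 and 44.1 in Hispidulin+AB. The groups overlapped, and its log2 fold change was 0.25 (SE 0.13, limma adjusted p = 0.311) with DMSO and 0.03 (SE 0.13, limma adjusted p = 0.984) with hispidulin.

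Neither VEGF ligand passed the test after banding, and Vegfa is the one whose hispidulin groups did not overlap. Its FPKM was 69.09, 86.84 and 67.5 in DMSO+Sham, 68.98, 68.05 and 69.38 in Hispidulin+Sham, 90.74, 79.05 and 56.75 in DMSO+AB, and 79.66, 79.97 and 74.55 in Hispidulin+AB. The DMSO+AB mice spanned the widest range, and the Hispidulin+AB mice lay above the Hispidulin+Sham mice without overlap. The log2 fold change was 0.00 (95% interval -0.33 to 0.33, limma adjusted p = 0.993) with DMSO and 0.18 (95% interval -0.15 to 0.51, limma adjusted p = 0.887) with hispidulin. Vegfb, whose product binds VEGFR1 and is abundant in heart muscle, had an FPKM of 331.27, 376.16 and 255.31 in DMSO+Sham, 338.0, 336.74 and 281.31 in Hispidulin+Sham, 310.72, 296.11 and 345.69 in DMSO+AB, and 320.82, 313.22 and 274.14 in Hispidulin+AB. These groups overlapped, with log2 fold changes after AB of 0.00 (SE 0.14) with DMSO and -0.07 (SE 0.14) with hispidulin (limma adjusted p = 1 and 0.963).

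The VEGF receptors overlapped between sham and AB. Kdr had an FPKM of 34.26, 32.28 and 25.49 in DMSO+Sham, 39.51, 28.9 and 40.14 in Hispidulin+Sham, 34.8, 27.17 and 26.46 in DMSO+AB, and 32.19, 28.13 and 37.13 in Hispidulin+AB. Flt1 had an FPKM of 28.81, 21.85 and 25.48 in DMSO+Sham, 30.27, 30.58 and 34.39 in Hispidulin+Sham, 27.23, 17.85 and 23.59 in DMSO+AB, and 31.83, 25.38 and 29.43 in Hispidulin+AB. The lowest Flt1 value was in DMSO+AB and the highest in Hispidulin+Sham. After AB, Kdr differed by -0.06 (SE 0.17) with DMSO and -0.14 (SE 0.17) with hispidulin, and Flt1 by -0.15 (SE 0.15) and -0.14 (SE 0.15), with limma adjusted p of 0.885, 0.925, 0.61 and 0.922.

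Both genes of endothelial cell contacts had values above 0 for the change after AB, without passing the test. Pecam1 had an FPKM of 66.19, 70.48 and 93.46 in DMSO+Sham, 75.23, 74.31 and 85.66 in Hispidulin+Sham, 83.55, 82.98 and 81.54 in DMSO+AB, and 97.39, 85.51 and 89.14 in Hispidulin+AB. The DMSO+Sham mouse at 93.46 lay above all DMSO+AB mice. Cdh5 had an FPKM of 60.02, 70.59 and 57.08 in DMSO+Sham, 58.18, 63.67 and 64.19 in Hispidulin+Sham, 71.27, 61.3 and 81.41 in DMSO+AB, and 64.98, 63.89 and 77.1 in Hispidulin+AB. The averaged change was 0.17 (SE 0.09, limma adjusted p = 0.279, exact permutation p = 0.065) for Pecam1 and 0.16 (SE 0.09, limma adjusted p = 0.299, exact permutation p = 0.06) for Cdh5. Without DMSO+Sham replicate 3, the mouse at 93.46, the Pecam1 change was 0.24 and passed (limma adjusted p = 0.0444). It also passed with libraries weighted by their quality (0.26, limma adjusted p = 0.0227).

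**Figure D3:**
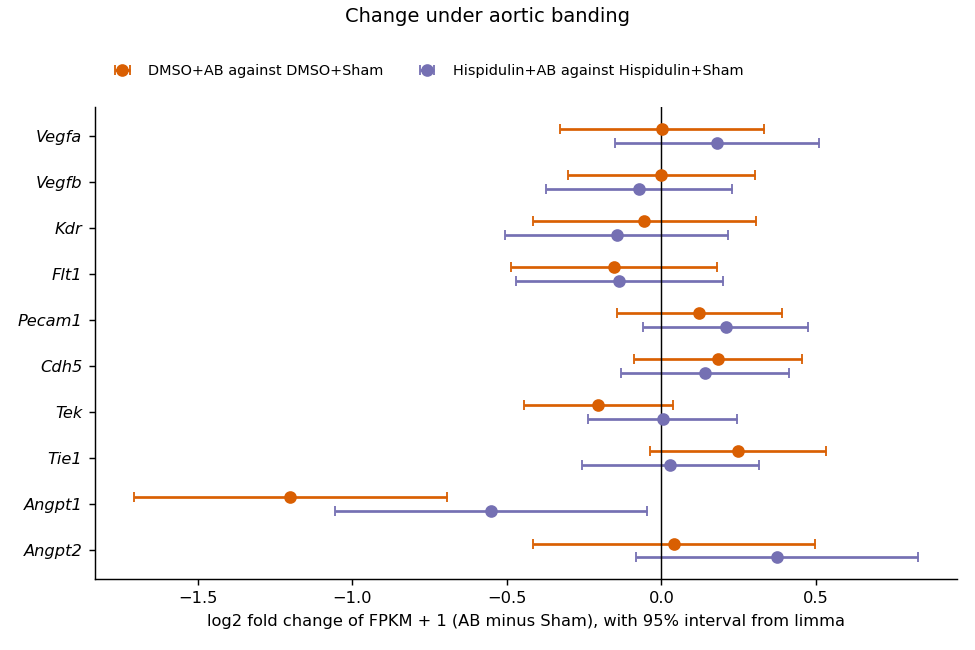
Log2 fold change of FPKM + 1, AB minus sham (horizontal axis), for each of the 10 genes with DMSO and with hispidulin; points are limma estimates and bars are 95% intervals from 3 mice per group. The Angpt1 intervals, -1.71 to -0.70 with DMSO and -1.06 to -0.05 with hispidulin, lie below 0, and the intervals of the other 9 genes include 0.

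The study's main question was the effect of hispidulin, and no gene of the 10 passed in any comparison of hispidulin with DMSO. The share of all genes called was 0% in banded mice, 0% in sham-operated mice, 0% averaged over both and 0% for the interaction of hispidulin and AB. In the same order, 362, 287, 347 and 289 genes had an unadjusted limma p under 0.05. These are 3.1%, 2.46%, 2.97% and 2.48% of all genes tested, each less than the fraction of 0.05 that would pass with no difference at all. The comparisons of Hispidulin+AB with DMSO+AB and of DMSO+AB with DMSO+Sham share the DMSO+AB mice.

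In banded mice, the largest differences between hispidulin and DMSO among the 10 were those of Flt1 and Angpt1. Flt1 was 1.26 times as high in Hispidulin+AB as in DMSO+AB, a log2 difference of 0.34 (SE 0.15, 95% interval 0.00 to 0.67, unadjusted p = 0.0483, limma adjusted p = 0.996). Angpt1 was 1.36 times as high, a log2 difference of 0.33 (SE 0.23, 95% interval -0.18 to 0.83, limma adjusted p = 0.996). Pecam1 was 1.10 times as high and its groups did not overlap, at 85.51 to 97.39 against 81.54 to 83.55 FPKM, yet its log2 difference of 0.13 (SE 0.12) did not pass (limma adjusted p = 0.996). Pecam1 was the 1 gene of 10 without overlap, against 7.88% of all genes.

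Flt1 also stood above DMSO in sham-operated mice. All 3 Hispidulin+Sham mice, at 30.27 to 34.39 FPKM, lay above all 3 DMSO+Sham mice, at 21.85 to 28.81, with a log2 difference of 0.32 (SE 0.15, limma adjusted p = 1). It was the 1 gene of 10 whose groups did not overlap there, against 5.6% of all genes. Averaged over sham and AB, the Flt1 difference was 0.33 (SE 0.11, unadjusted p = 0.0107), which did not pass over all genes (limma adjusted p = 0.999). The Angpt1 difference was -0.32 in sham-operated mice (SE 0.23, limma adjusted p = 1), the opposite sign to that in banded mice, and its average was 0.00 (SE 0.16).

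For the other genes of both pathways, every gene of a list was counted, whether or not it passed. Of 14 further VEGF pathway genes tested, 2 were called higher after AB in the average, where 3.52% of all genes tested were called higher. In DMSO-treated mice, where that share was 2.5%, none was called at an adjusted p under 0.05 by limma, while 2 of the 14 had an unadjusted p under 0.05, against 20.4% of all genes tested. Shb, an adaptor protein that binds VEGFR2, had an FPKM of 9.15, 11.26 and 10.92 in DMSO+Sham, 11.28, 9.01 and 10.91 in Hispidulin+Sham, 21.04, 14.48 and 13.65 in DMSO+AB, and 19.35, 12.75 and 19.62 in Hispidulin+AB, so all banded mice lay above all sham-operated mice. Its averaged log2 fold change was 0.62 (SE 0.13, limma adjusted p = 0.0173). Rcan1, a calcineurin inhibitor that VEGF and calcium signals induce in endothelium and that heart muscle also expresses, rose from 100.5 ± 58.7 FPKM in DMSO+Sham and 90.7 ± 51.3 in Hispidulin+Sham to 283 ± 109 with DMSO and AB and 273 ± 101 with hispidulin and AB (SD, n = 3). Its averaged log2 fold change was 1.63 (SE 0.36, limma adjusted p = 0.0197). The median of the 14 genes was 0.10, against -0.03 for all genes tested. The Shb call ended without Hispidulin+Sham 2, Hispidulin+AB 1 or Hispidulin+AB 3 (limma adjusted p 0.0508 to 0.0531), the Rcan1 call without DMSO+Sham 1, Hispidulin+AB 1 or Hispidulin+AB 3 (0.0511 to 0.0569), and both without the 3 libraries high in atrial markers (0.144 and 0.0904).

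Of 9 further genes of the angiopoietin-Tie pathway in the table, 8 were tested and Angptl1 stayed under the filter. Svep1, an extracellular protein that binds TIE1, was the 1 called, and it was higher, where 2.5% of all genes tested were called higher with DMSO and 3.52% in the average. Its FPKM was 1.58, 1.24 and 1.84 in DMSO+Sham, 1.43, 1.37 and 1.69 in Hispidulin+Sham, 2.2, 6.02 and 6.9 in DMSO+AB, and 1.82, 3.89 and 3.04 in Hispidulin+AB. The lowest value of each AB group was close to the sham values. The log2 fold change was 1.15 (SE 0.30, limma adjusted p = 0.0459) with DMSO and 0.88 (SE 0.21, limma adjusted p = 0.0269) in the average. The DMSO call ended in 5 of 6 fits that left out 1 library (all but DMSO+AB 1, limma adjusted p 0.0626 to 0.162). The averaged call ended in 7 of 12 such fits, those without DMSO+Sham 1, Hispidulin+Sham 1 or 2, DMSO+AB 2 or 3, or Hispidulin+AB 2 or 3 (0.0531 to 0.0698), and both ended without the 3 libraries high in atrial markers (0.275 and 0.222). Of 8 fibroblast markers, 4 were called higher in the average, against the same 3.52%. Their summed FPKM was 406.1, 987.3 and 678.8 in the DMSO+AB mice and 407.4, 656.4 and 487.8 in the Hispidulin+AB mice, in the order of the Svep1 values, against 346.5 to 448.5 in DMSO+Sham and 353.5 to 483.5 in Hispidulin+Sham. Their part in the Svep1 values was not tested. The median of the 8 angiopoietin-Tie pathway genes in the average was 0.10.

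A list of 25 further endothelial genes gave the background against which the 10 genes can be read. None was called in any comparison by limma, while 5 of the 25 in DMSO-treated mice and 9 of the 25 in the average had an unadjusted p under 0.05, against 20.4% and 23.3% of all genes tested. In the average, 21 of the 25 were above 0 and 4 below, with a median of 0.19 against -0.03 for all genes. In DMSO-treated mice 20 of the 25 were above 0. Of all genes tested, 44.2% were above 0 in each of these comparisons. Cd34 (0.49, limma adjusted p = 0.0826), Robo4 (0.23, 0.0883), Cldn5 (0.36, 0.104) and Eng (0.19, 0.126) had the smallest p apart from Egfl7 (0.37, 0.117). In hispidulin against DMSO, 1 of the 25 had an unadjusted p under 0.05 in banded mice, 6 in sham-operated mice and 7 in the average, against 3.1%, 2.46% and 2.97% of all genes tested. The 6 in sham-operated mice were Plvap (0.86), Myct1 (0.52), Sox7 (0.47), Sox17 (0.44) and Eng (0.33), which were higher with hispidulin, and Cldn5 (-0.48), which was lower, each with a limma adjusted p of 1. In the same comparison all 4 red blood cell markers were above 0 (0.75 to 1.13, 2 with an unadjusted p under 0.05, limma adjusted p of 1 each), against 47.6% of all genes tested. Their summed FPKM was 4084, 2734 and 8324 in the Hispidulin+Sham mice, against 2129 to 3520 in DMSO+Sham. The mouse at 8324 was also the Hispidulin+Sham mouse with an atrial marker sum of 782. The part of the red blood cell markers in the endothelial values was not tested. In the average the same 6 genes and Vwf (0.41) had such a p, with a limma adjusted p of 0.999 each. The summed FPKM of the 25 was 828 to 912 in DMSO+Sham, 878 to 1009 in Hispidulin+Sham, and, after banding, 975 to 1080 in DMSO+AB and 976 to 1029 in Hispidulin+AB. In these bulk samples, fewer or more endothelial cells and less or more RNA per cell cannot be told apart.

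**Figure D4:**
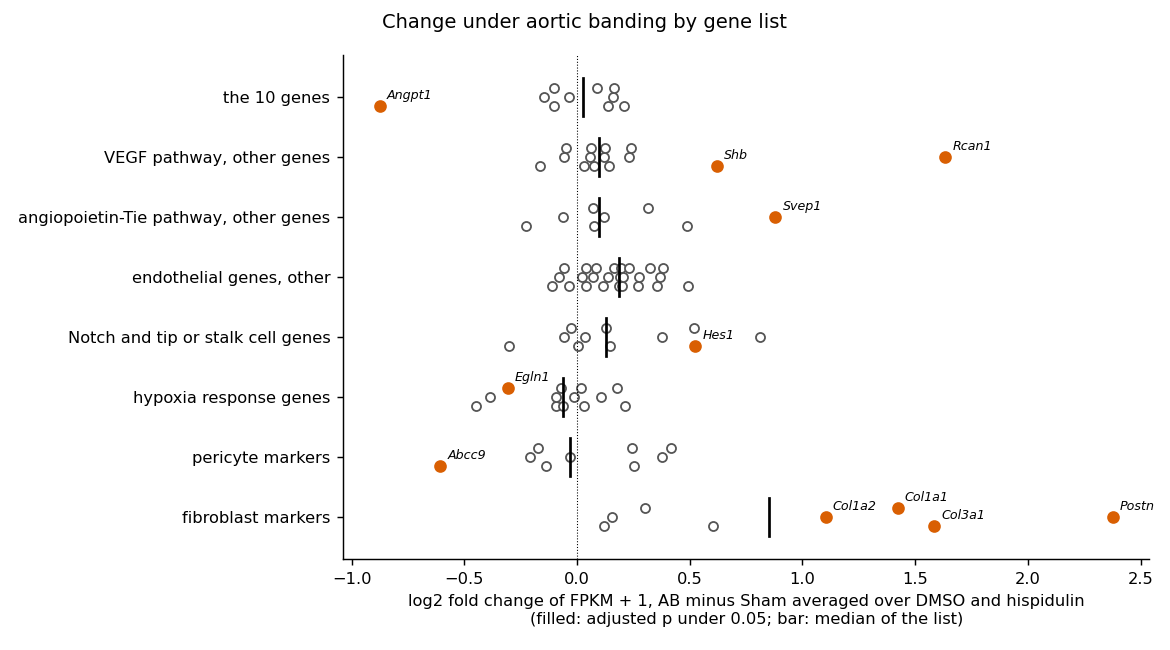
Log2 fold change of FPKM + 1 after AB, averaged over DMSO and hispidulin (horizontal axis), for the 10 genes and 7 other lists; each point is a gene, filled points passed an adjusted p under 0.05 in limma and vertical bars mark list medians. Angpt1 at -0.88 is the lowest gene shown, and the endothelial list, median 0.19, holds no filled point.

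Among lists of processes that act on vessels, single genes passed, where 3.52% of all genes tested were called higher and 3.87% lower in the average. With 1 call in each, neither count can be set apart from those shares. Of 11 Notch and tip or stalk cell genes, Hes1, a Notch target that many cell types express, was higher in the average (0.52, SE 0.14, limma adjusted p = 0.0418). Of 13 hypoxia response genes, Egln1, which encodes the oxygen sensor PHD2, was lower (-0.31, SE 0.08, limma adjusted p = 0.0325). The Hes1 call ended in 9 and the Egln1 call in 8 of the 12 fits without 1 library (limma adjusted p 0.0552 to 0.11 and 0.0576 to 0.0785). The exceptions, where a call held, were DMSO+Sham 2, DMSO+AB 1 and Hispidulin+AB 2 for Hes1, and DMSO+Sham 2, DMSO+Sham 3, DMSO+AB 1 and DMSO+AB 3 for Egln1. Without the 3 libraries high in atrial markers neither passed (0.293 and 0.235).

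The lymphatic marker Prox1, a transcription factor of lymphatic endothelium that cardiac muscle cells also express, fell after AB. Its FPKM was 9.02, 10.08 and 8.83 in DMSO+Sham, 7.58, 7.3 and 6.55 in Hispidulin+Sham, 3.91, 4.92 and 4.8 in DMSO+AB, and 4.46, 5.82 and 5.86 in Hispidulin+AB. All banded mice lay below all sham-operated mice. The log2 fold change was -0.90 (SE 0.12, limma adjusted p = 0.00434) with DMSO and -0.63 (SE 0.09, limma adjusted p = 0.00292) in the average, and no single library ended either call, although the DMSO call missed the threshold without the 3 libraries high in atrial markers (limma adjusted p = 0.0531) and with the 6 DMSO libraries fitted alone (0.075). Prox1 was the 1 called of 4 lymphatic markers tested, against 2.71% of all genes tested called lower with DMSO and 3.87% in the average. The other 3 did not pass in the average and did not share one sign, with Lyve1 at -0.23, Ccl21a at -0.26 and Pdpn at 0.41 (limma adjusted p = 0.425, 0.501 and 0.142). Reln stayed under the filter.

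Cells that wrap vessels gave mixed values, with single calls against 5.21% of all genes tested with DMSO and 7.39% in the average. Of 9 pericyte markers, Higd1b was called higher with DMSO (0.51, SE 0.13, limma adjusted p = 0.0426) and Abcc9, a potassium channel subunit that heart muscle also expresses, lower in the average (-0.61, SE 0.15, limma adjusted p = 0.0318). Of 6 smooth muscle markers, Tagln was called higher in the average (0.49, SE 0.13, limma adjusted p = 0.043). Each of the 3 calls rested on most of the libraries, ending in 5 of 6 fits without 1 library for Higd1b (all but DMSO+Sham 2, limma adjusted p 0.051 to 0.149), in 9 of 12 for Abcc9 (all but DMSO+Sham 2, DMSO+Sham 3 and DMSO+AB 1, 0.0569 to 0.086) and in 10 of 12 for Tagln (all but DMSO+Sham 2 and Hispidulin+AB 3, 0.0536 to 0.102). Without the 3 libraries high in atrial markers, their limma adjusted p was 0.205, 0.177 and 0.073. The pericyte markers summed to 264 to 297 FPKM in DMSO+Sham, 284 to 313 in Hispidulin+Sham, 217 to 296 in DMSO+AB and 281 to 290 in Hispidulin+AB, so 2 of the 3 DMSO+AB mice lay below all others. Taken gene by gene with DMSO, 5 of the 9 markers were above 0 after AB and 4 below, with a median of 0.01. Pdgfrb (0.42) and Cspg4 (0.57) were higher without overlap between the groups, and Abcc9 (-0.79) was the lowest. None of these 3 was called with DMSO (limma adjusted p = 0.0593, 0.062 and 0.0548). Angpt1 is expressed by cells that wrap vessels, and their part in its fall was not tested.

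Markers of the tissue and of other cell types gave the setting. Myl2, the ventricular myosin light chain, was at 11178 to 16920 FPKM in all 12 libraries. The load response was present in the banded mice, with Nppb 7.44 times and Acta1 20.1 times as high in DMSO+AB as in DMSO+Sham, and both called in the average (log2 fold changes 2.48 and 3.57, limma adjusted p = 0.000613 and 0.000404). Nppa (2.85, 0.0135) and Myh7 (1.93, 0.0228) also passed in the average, Myh7 losing its call in 6 of 12 fits without 1 library (0.0502 to 0.0538). All 8 fibroblast markers were above 0 after AB in the average, against 44.2% of all genes tested, and 4 of the 8 passed there (Postn, Col1a1, Col1a2 and Col3a1). Of 9 cardiac muscle markers, 2 were called lower with DMSO, Ryr2 and Pln (-0.59 and -0.62, limma adjusted p = 0.0364 and 0.0396), against 2.71% of all genes tested. Of the other 7, 5 were below 0 and 2 above, Actc1 (0.78, limma adjusted p = 0.235) and Myl3 (0.15, 0.402). Leaving out 1 library ended the averaged calls of Col1a1, Col1a2 and Col3a1 in 7, 10 and 10 of 12 fits (limma adjusted p 0.0521 to 0.0971) and the DMSO calls of Ryr2 and Pln in 4 and 5 of 6 fits (0.0644 to 0.135), while Nppb, Acta1, Nppa and Postn kept their averaged calls in all 12. Without the 3 libraries high in atrial markers, Nppb and Acta1 still passed in the average (limma adjusted p = 0.0314 and 0.0151), whereas Nppa (0.0815), Myh7 (0.195), Postn (0.0584), Col1a1 (0.195), Col1a2 (0.253) and Col3a1 (0.235) did not, nor did Ryr2 (0.205) and Pln (0.179) with DMSO. None of 8 macrophage, 4 red blood cell, 4 atrial or 3 endocardial markers tested was called after AB by limma. The 3 endocardial markers tested, of which Vwf is also on the endothelial list, were above 0 for hispidulin against DMSO under both operations. Of all genes tested, 51.4% were above 0 in banded mice and 47.6% in sham-operated mice. In banded mice Vwf (0.50), Npr3 (0.37) and Cytl1 (0.74) had an unadjusted p under 0.05 (limma adjusted p = 0.996 each), against 3.1% of all genes tested. In sham-operated mice Npr3 (0.59) and Cytl1 (0.80) did and Vwf (0.33) did not (limma adjusted p = 1 each), and all 3 did in the average (limma adjusted p = 0.999 each).

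The 10 genes were also compared with each other. For 45 pairs, deviations of log2(FPKM + 1) from the group means were correlated over the 12 libraries, given with no test since libraries share any technical deviation. Cdh5 and Tie1 varied most alike (Pearson r = 0.887, Spearman rho = 0.895, and r = 0.792 without the 2 mice farthest from the median of Cdh5). The receptors Kdr and Flt1 gave r = 0.457. Vegfb and Pecam1 gave the most negative value (r = -0.734), which was -0.301 without 2 mice. Angpt1 and Angpt2 gave r = 0.117 and Angpt1 and Tek r = 0.314.

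Genes most like 4 of the members over the 12 libraries were taken from all other tested genes by Pearson r, with no test. For Angpt2 they were Socs3 (0.925), Bcl3 (0.923), Gfpt2 (0.910), Ccl2 (0.908) and Swap70 (0.898). For Pecam1 they were Icosl (0.941), Knop1 (0.879), Nfkbiz (0.875), Mak16 (0.870) and Rai14 (0.865), and for Vegfa they were Utp18 (0.905), Mettl16 (0.853), Lrrc27 (0.843), Lactb (0.843) and Gm7102 (0.841). For Angpt1, a search added after its values were seen gave Ppm1k (0.949), Dnajc28 (0.948), Pln (0.942), Zfp961 (0.940) and Tm9sf2 (0.936). These values keep the differences between groups, which Angpt1 and Pln share in being lower after AB. With deviations from the group means, the r of the same 5 genes with Angpt1 was 0.843, 0.814, 0.881, 0.955 and 0.929. Pln, the inhibitor of the calcium pump of cardiac muscle, is expressed by cardiac muscle cells. Each was picked as among the highest of 11664 genes and so is a selected value.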

How the data were processed

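Left ventricular muscle of 12 mice was sequenced, and each library was grouped by its sample title. The authors deposited FPKM as 1 table for all libraries, rounded to 0.01. The submitters' processing notes name HISAT2 2.0.4, Bowtie2 2.2.5, RSEM 1.2.12 and DESeq2 1.4.5. The genome build and annotation are not given in the sources used here, nor is the use of strand. Depth could not be recovered from FPKM, so no counting interval is given.

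RefSeq symbols matched 17947 of 18079 gene identifiers (99.3%). No further scaling was applied to the deposited values, and log2(FPKM + 1) was analysed with limma 3.58.1 under R 4.3.3. A gene was tested when 3 or more of the 12 libraries reached an FPKM of 1. The model gave each group its own mean over all 12 libraries, leaving 8 error degrees of freedom, with eBayes, a mean-variance trend and two-sided tests. Genes were called at a Benjamini-Hochberg adjusted p under 0.05 over all 11664 genes. Of the list genes, those that passed were named, up to 5 per list and comparison, and others without a call were named after their values were seen. The 5 nearest genes by Pearson r were named for Pecam1, Vegfa and Angpt2, and Angpt1 was added later. The members, lists and tests were chosen with earlier results of these data known. The fit was tried on simulated data with independent errors per gene, which cannot show how deviations shared by a library act on calls. Shared 50-base windows were counted in GENCODE vM21 transcripts with Python 3.11.15, and the most alike coding windows of related genes were searched in the same transcripts. Other settings tried are given in the closing section.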

Additional observations from a re-analysis of the deposited data

How the results depend on the processing

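The Angpt1 fall in DMSO-treated mice stayed negative under all 17 alternatives tested at an adjusted p under 0.05 (-1.56 to -0.92 on the log2 scale) and passed in 13, with a limma adjusted p of 0.00973 to 0.125. In the average it was negative under all 22 (-1.13 to -0.75) and passed in 21 (0.00468 to 0.126). The stricter criteria given next are not among these alternatives, and Angpt1 met them in neither comparison. The number of the 10 genes called in DMSO-treated mice went from 1 to 0 with the 6 compared libraries alone. Under the study's stricter criteria (adjusted p of at most 0.001 and log2 change of at least 1), set on limma values, it was 0. It was also 0 without the 3 libraries high in atrial markers, and 0 to 1 when 1 library was left out. In the average it was 2 with library weights, 0 under the stricter criteria, 0 without those 3 libraries, and 1 to 2 when 1 library was left out. The second gene was Pecam1 in both cases. Each of these fits but the weighted one uses fewer samples or a stricter rule, and the cause was not tested further. The study's own test was not repeated, so counts under its criteria here cannot be set against the genes it reported.

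Among all genes, the 608 calls between DMSO+AB and DMSO+Sham became 383 without a filter on low values, 1423 with library weights, 11 with the compared libraries alone, 142 with the leading digit of the name number as a covariate, 0 under the stricter criteria, 20 without the 3 libraries high in atrial markers, and 91 (without DMSO+Sham replicate 1) to 1050 (without DMSO+Sham replicate 2) when 1 library was left out. The 0 calls between Hispidulin+AB and Hispidulin+Sham became 2 without a filter, 2 with median-of-ratios scaling, 3 with quantile normalization, 209 with library weights, 51 with the compared libraries alone and 0 to 3 when 1 library was left out. The 862 averaged calls became 2535 with library weights, 547 with the name-number covariate, 9 under the stricter criteria, 73 without the 3 libraries, and 373 (without Hispidulin+AB replicate 3) to 1210 (without DMSO+Sham replicate 2) when 1 library was left out. Hispidulin against DMSO gave 2 calls in banded mice without a filter. When 1 library was left out it gave 0 to 20 in banded mice and 0 to 2 in the average, and the interaction gave 0 to 3.

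Changes near 0 turned sign without passing a test. In DMSO+AB against DMSO+Sham, Vegfa was -0.0343 with quantile normalization, -0.0645 with the name-number covariate and -0.0430 without the 3 libraries, Vegfb 0.0261 with median-of-ratios scaling, 0.0610 with the covariate and 0.0485 without the 3 libraries, Kdr 0.0311 with the covariate, Flt1 0.00669 without the 3 libraries and Angpt2 -0.11 with the covariate. Leaving out 1 library moved them over -0.14 to 0.19 for Vegfa, -0.16 to 0.12 for Vegfb, -0.18 to 0.0271 for Kdr, -0.28 to 0.00669 for Flt1 and -0.13 to 0.20 for Angpt2. With hispidulin, Tek was -0.0162 with the covariate and -0.0187 to 0.0492 when 1 library was left out. In the average, Vegfb was 0.0237 with the covariate and -0.11 to 0.0255 when 1 library was left out. In Hispidulin+AB against DMSO+AB, Kdr was -0.0120 without the 3 libraries, Cdh5 0.00725 with library weights, and Tie1 0.0290 with quantile normalization and 0.0728 with library weights. Leaving out 1 library there moved Vegfa over -0.12 to 0.22, Vegfb over -0.12 to 0.000717, Cdh5 over -0.15 to 0.0488, Tie1 over -0.12 to 0.12 and Angpt2 over -0.0480 to 0.28. In hispidulin against DMSO, 4 of the 10 genes turned sign under some setting in sham-operated mice and 5 in the average, and 6 did for the interaction.

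Replicate numbers in the labels were tried as a replicate block, although deviations of same-numbered mice from their group means correlated by 0.0578 on average (18 pairs, r -0.422 to 0.33) and not every library correlated best with its own number. Angpt1 was then -1.20 in DMSO-treated mice (limma adjusted p = 0.0161), and 17 genes were called between Hispidulin+AB and Hispidulin+Sham instead of 0. The block changed no call among the 10 genes, and among the other named genes it ended the averaged calls of Hes1 (limma adjusted p = 0.0539) and Ryr2 (0.0551) and the DMSO call of Higd1b (0.0631). Of the other genes named, Prox1 passed in 15 of 17 alternatives with DMSO and all 22 in the average, Shb and Rcan1 in 17 of 22 each, Svep1 in 7 of 16 with DMSO and 11 of 21 in the average, Higd1b in 7 of 17 with DMSO, and Hes1, Egln1, Abcc9 and Tagln in 9, 11, 9 and 8 of 22, with no change of sign. These counts too leave out the stricter criteria, which none of these genes met. With 3 mice per group, depth unknown and Angpt2 near 1 FPKM, differences smaller than the intervals given were not detectable.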
